A study of Bactrocera dorsalis with 16 samples.

Results

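The genes described here are 6 gene models of the oriental fruit fly, Bactrocera dorsalis, whose product names are those of transcription factors that respond to ecdysone. They are 6 of the 13759 genes in the deposited expression table and were chosen by gene identifier: 3 broad-complex models named here by their transcripts BDOR_004995, BDOR_004994 and BDOR_004992, ecdysone-induced protein 74EF (MSTRG.5256, here E74EF), a nuclear hormone receptor FTZ-F1-like product (MSTRG.1549) and nuclear hormone receptor HR78 (MSTRG.5229). RNA sequencing was done on ovary and on fat body, an insect tissue of nutrient storage that also secretes yolk proteins, of adult females at days 1, 5, 9 and 13 after eclosion. There were 8 groups of 2 libraries, 16 in all, and the females of every group were kept on a diet of yeast extract and sugar, with no further treatment, genotype or strain given in the labels. The submitters call the 2 libraries of a group biological replicates but do not say how many females made up a library, or whether libraries came from separate cohorts, so p-values measure only the spread between these libraries. Levels are FPKM, which divides fragment numbers by transcript length and by the size of the library.

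Ecdysone is the steroid hormone of insects. Its active form binds a heterodimer of the ecdysone receptor and ultraspiracle, which switches on a small set of early genes, among them broad-complex, E74 and E75. The early genes encode transcription factors that pass the signal to later target genes, while other nuclear receptors, such as HR3 and FTZ-F1, act later in the cascade. In Drosophila the ovary itself makes ecdysone, and the hormone and its early genes act in egg chambers around the onset of yolk uptake. Broad-complex encodes BTB zinc finger proteins, E74 encodes ETS-domain proteins, and HR78 is an orphan nuclear receptor.

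Not every identity rests on the same ground. The broad-complex models each hold 1 transcript, and the authors' identifier that lies between theirs, BDOR_004993-RA, belongs to another broad-complex model. That model had at most 1.05 FPKM in a library and was below the level needed for testing. Whether these neighbouring identifiers are pieces of 1 gene is not given. The gene ontology terms of BDOR_004992 and E74EF name transcription but neither ecdysone nor steroids. The gene ontology terms of MSTRG.1549 are those of a potassium channel, with none for steroid signalling or transcription, so its product name and its ontology differ. A further model, nuclear hormone receptor FTZ-F1 isoform X2 (MSTRG.4468), carries steroid and transcription terms and is described beside it.

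Estimated from low-level genes, depth lay between 0.853 and 1.11 relative to ovary day 1 replicate 1, and between 7425 and 9054 genes reached 1 FPKM. Read counts were not used here, so a level listed at 0 sets no stated limit. The 8 germline markers summed to between 515.0 and 1106 FPKM in ovary libraries and between 26.4 and 53.0 FPKM in fat body libraries. Vasa had the highest ovary mean of them, 490.4 FPKM. Ovo rows MSTRG.775 (1.41 FPKM in ovary against 6.34 FPKM), MSTRG.1917 (0.117 against 0.439 FPKM) and another (1.13 against 1.18 FPKM) had the higher mean in fat body. The 10 fat body markers summed to between 599.6 and 2708 FPKM in fat body and between 275.6 and 418.5 FPKM in ovary. Among them lipid storage droplets surface-binding protein 2 (MSTRG.2275) had the higher mean in ovary (216.3 against 145.7 FPKM), and the others in fat body. The 17 muscle markers were high in both, at 4390 to 16300 FPKM in fat body and 355.2 to 5651 FPKM in ovary. The 5 eggshell markers of follicle cells, chorion and vitelline membrane proteins, summed to between 5.90 and 12.7 FPKM in the ovary at days 1 and 5, 5714 and 10650 FPKM at day 9, and 2346 and 2938 FPKM at day 13. In the fat body they summed to 50.75 and 184.3 FPKM at day 9 and between 8.15 and 25.6 FPKM at the other ages. Germline markers in the fat body were also highest at day 9, at 49.5 and 53.0 FPKM, against at most 41.3 FPKM at the other ages. The part of these ovary markers in the day 9 fat body levels was not tested. The 13 hemocyte markers summed to between 156.0 and 255.6 FPKM in fat body and between 56.7 and 222.5 FPKM in ovary, and the 61 cuticle proteins between 1339 and 20300 FPKM in fat body and between 522.6 and 1281 FPKM in ovary. Markers were matched on any product name of a row. The hemocyte row MSTRG.1325 is first named clavesin-1, and the muscle row MSTRG.6287 is first named a hypothetical protein.

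Levels were compared as log2 of FPKM plus 1 with limma, in 1 fit of the 10213 genes whose mean reached 1 FPKM in some group, and a gene counts as changed at a Benjamini-Hochberg adjusted p under 0.05. Fold changes are log2 differences on that scale ± standard error (SE), which understate the change of low genes. All 6 genes were tested, but BDOR_004995, BDOR_004994 and BDOR_004992 passed the level filter through ovary groups only, so their difference between the tissues was partly set by that filter and is given as a description. The same holds for E74EF isoform A-like, the ecdysone receptor, ecdysone receptor B1, FTZ-F1 isoform X2, HR3 and E75B (MSTRG.6921), described beside them. Changes between ages were also partly set by the filter where only the higher ages reached it. These ages were ovary day 5 for BDOR_004992 and ovary day 9 for BDOR_004995 and HR3. They were ovary days 9 and 13 for ecdysone receptor B1 and MSTRG.6921, and ovary days 1 and 5 for E74EF isoform A-like. For E74EF isoform B they were day 1 in the ovary and days 1 and 5 in the fat body. In bulk tissue, fewer cells of a type and less RNA per cell cannot be told apart.

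**Figure D1:**
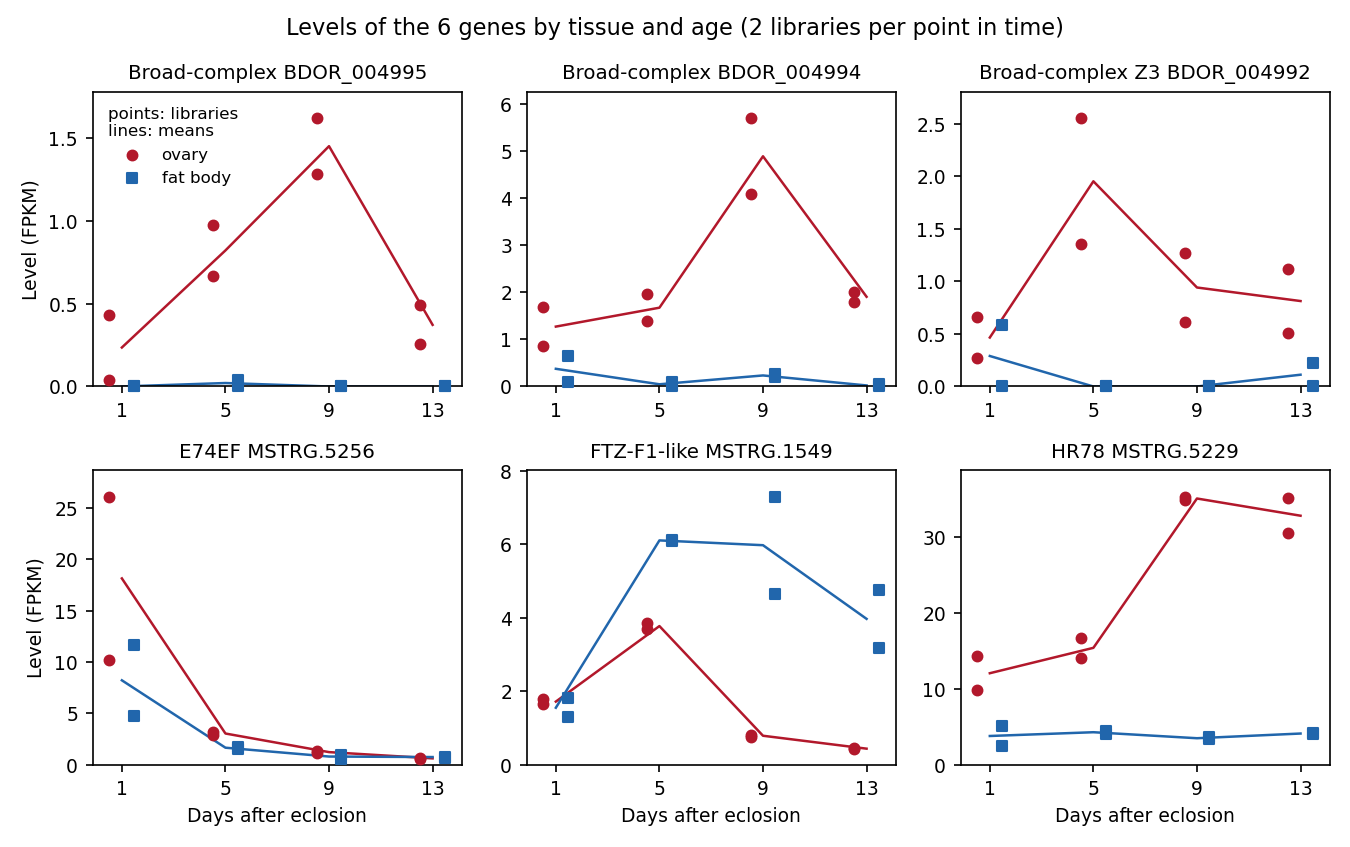
FPKM of each of the 6 genes (vertical axis) at 1, 5, 9 and 13 days after eclosion (horizontal axis) in ovary (red circles) and fat body (blue squares), with 1 point per library and lines through the group means. HR78 in the ovary moves from 12.0 FPKM at day 1 to 35.0 FPKM at day 9, E74EF is highest at day 1 in both tissues, and the FTZ-F1-like product is the one that lies higher in the fat body.

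The broad-complex models were ovary transcripts of low level. Model BDOR_004994 had the highest mean of the 3 over the 8 ovary libraries. Its ovary libraries held 0.862 and 1.68 FPKM at day 1, 1.39 and 1.96 FPKM at day 5, 5.70 and 4.09 FPKM at day 9, and 2.01 and 1.80 FPKM at day 13. The fat body libraries held 0.0963 and 0.656 FPKM at day 1, 0 and 0.0944 FPKM at day 5, 0.273 and 0.197 FPKM at day 9, and 0.0451 and 0 FPKM at day 13. Every ovary library lay above every fat body library, and the day 9 ovary pair lay above all other libraries. Of the neighbouring ovary groups in order of level, days 13 and 5 overlapped, as did days 5 and 1.

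Model BDOR_004994 rose in the ovary from day 5 to day 9 (1.13 ± 0.24, adjusted p 0.00385), a 2.92-fold higher mean FPKM. With a pseudocount of 0.1 the adjusted p was 0.0805. The call of a fall from day 9 to day 13 (-1.01 ± 0.24, adjusted p 0.0468) held in only 5 of 21 alternatives, and the adjusted p without ovary day 9 replicate 1 was 0.268. No step in the fat body passed the test, with an adjusted p from 0.38 to 0.639. Whether the rise to day 9 differed between the tissues was tested directly and did not pass (0.90 ± 0.34, adjusted p 0.0796). That difference was 1.09 (adjusted p 0.018) under quantile normalization and 0.24 (adjusted p 0.879) with a pseudocount of 0.1. The eggshell markers went, over the same ovary step, from at most 12.7 to at least 5714 FPKM, and their part in this and the other ovary changes at day 9 was not tested.

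Model BDOR_004995 was also highest in the ovary at day 9, at a lower level. The ovary libraries held 0.0386 and 0.431 FPKM at day 1, 0.667 and 0.972 FPKM at day 5, 1.62 and 1.28 FPKM at day 9, and 0.255 and 0.488 FPKM at day 13. It was listed at 0 in 7 of 8 fat body libraries, with 0.0419 FPKM in the other. The day 9 pair lay above the day 5 pair, and the day 5 pair above those of days 13 and 1, which overlapped.

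The step from day 1 to day 5 passed for BDOR_004995 (0.57 ± 0.17, adjusted p 0.034), as did the fall from day 9 to day 13 (-0.84 ± 0.17, adjusted p 0.0259). Neither held up against single libraries: without ovary day 1 replicate 1 the first was 0.34 (adjusted p 0.151), without ovary day 5 replicate 2 it was 0.45 (adjusted p 0.198), and leaving out any 1 library of days 9 and 13 in the ovary took the second to an adjusted p from 0.0604 to 0.154. With a pseudocount of 0.1 the adjusted p was 0.0571 for the first and 0.12 for the second, and without either fat body library of day 5 it was 0.0504 and 0.0503 for the first. Only the ovary day 9 mean of BDOR_004995, 1.45 FPKM, reached the filter level. Its steps into and out of day 9 were thus partly set by the filter and are given as a description. The step from day 5 to day 9 did not pass as deposited (0.43 ± 0.17, adjusted p 0.0699). It passed with quantile normalization (0.87, adjusted p 0.000508), with median-of-ratios scaling (0.485, adjusted p 0.0193) and without either ovary library of day 1 (adjusted p 0.02 and 0.0193).

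Broad-complex Z3 (BDOR_004992), named for a protein form with the Z3 zinc finger pair, had its highest level at day 5 and not at day 9. Its ovary libraries held 0.275 and 0.657 FPKM at day 1, 1.35 and 2.55 FPKM at day 5, 1.27 and 0.616 FPKM at day 9, and 0.505 and 1.12 FPKM at day 13. It was listed at 0 in 6 of 8 fat body libraries, with 0.580 FPKM in 1 library of day 1 and 0.224 FPKM in 1 of day 13. Only the day 5 pair of the ovary stood apart from its neighbour in order of level, while the groups below it overlapped in turn.

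For BDOR_004992 the ovary day 5 mean, 1.95 FPKM, was the only one to reach the filter level. Its steps into and out of day 5 were thus partly set by the filter and are given as a description. The gain of BDOR_004992 from day 1 to day 5 in the ovary passed the test (0.99 ± 0.29, adjusted p 0.033). The adjusted p was 0.168 with a pseudocount of 0.1. Under median-of-ratios scaling the value was 0.84 (adjusted p 0.0611), without ovary day 5 replicate 2 0.69 (adjusted p 0.223) and without ovary day 1 replicate 1 0.80 (adjusted p 0.15). From day 5 to day 9 it had a value of -0.59 ± 0.29 (adjusted p 0.137).

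As a description, with the choice of tested genes favouring the ovary, the log2 difference of ovary against fat body over the 4 ages was 0.71 ± 0.08 for BDOR_004995, 1.46 ± 0.12 for BDOR_004994 and 0.84 ± 0.15 for BDOR_004992. Mean levels over 8 libraries were 0.718 ± 0.535 (SD) against 0.00524 ± 0.0148 FPKM for BDOR_004995, 2.44 ± 1.62 against 0.170 ± 0.218 FPKM for BDOR_004994 and 1.04 ± 0.721 against 0.101 ± 0.209 FPKM for BDOR_004992.

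A model whose product name is broad-complex isoform X1 (MSTRG.3225) was at a higher level than these models and followed a different course. Its ovary means were 9.01 ± 0.466 FPKM at day 1, 9.88 ± 0.741 FPKM at day 5, 11.6 ± 0.515 FPKM at day 9 and 17.7 ± 2.70 FPKM at day 13, and its fat body means were 6.04 ± 1.67, 3.41 ± 0.0834, 3.55 ± 0.616 and 2.68 ± 0.495 FPKM (SD, n = 2 each). From day 1 to day 13 it rose in the ovary (0.90 ± 0.19, adjusted p 0.00218) and fell in the fat body (-0.92 ± 0.19, adjusted p 0.00423). Its gene ontology names nucleic acid and metal ion binding but not ecdysone, which that of BDOR_004992 does not name either. Its KEGG orthology entry differs from the one that all 3 broad-complex models above share, so its identity as broad-complex is uncertain.

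E74EF (MSTRG.5256) was a transcript of the first day of adult life in both tissues. In the ovary it stood at 10.2 and 26.1 FPKM at day 1, 3.20 and 2.89 FPKM at day 5, 1.32 and 1.16 FPKM at day 9, and 0.608 and 0.648 FPKM at day 13. Its fat body levels were 4.75 and 11.7 FPKM at day 1, 1.74 and 1.59 FPKM at day 5, 1.00 and 0.611 FPKM at day 9, and 0.809 and 0.706 FPKM at day 13. In the ovary no 2 ages overlapped, and in the fat body only days 9 and 13 did.

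The fall from day 1 to day 5 passed in the ovary (-2.11 ± 0.41, adjusted p 0.00494) and in the fat body (-1.68 ± 0.41, adjusted p 0.021), where mean FPKM was 5.95-fold and 4.93-fold lower. The ovary call held in all 21 alternatives. In the fat body the value was -1.11 (adjusted p 0.103) without fat body day 1 replicate 2, and the adjusted p was 0.0869 and 0.101 without either library of day 5. The 2 libraries of day 1 differed widely in both tissues, replicate 2 having the higher level in each.

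From day 1 to day 13, E74EF fell by 3.42 ± 0.41 in the ovary (adjusted p 4.35e-05), 28.9-fold in mean FPKM, and by 2.28 ± 0.41 in the fat body (adjusted p 0.0019), 10.9-fold. Both calls held in all 21 alternatives. The later single steps did not pass in either tissue, with -0.85 ± 0.41 from day 5 to day 9 in the ovary (adjusted p 0.126) and -0.57 ± 0.41 in the fat body (adjusted p 0.469). A difference between the tissues in the first step was not shown (-0.42 ± 0.57, adjusted p 0.722), and its value was 0.21 without ovary day 1 replicate 2.

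A tissue difference in E74EF over the 4 ages did not pass as deposited, which does not show that the tissues were alike. The ovary against the fat body gave 0.46 ± 0.20 (adjusted p 0.0569), which became -0.08 under median-of-ratios scaling. It passed in 3 of 21 alternatives, at 0.58 (adjusted p 0.045) with a pseudocount of 0.1, 0.62 without ovary day 1 replicate 1 and 0.60 without fat body day 1 replicate 2. Mean FPKM was 2.21-fold, 1.83-fold and 1.53-fold higher in the ovary at days 1, 5 and 9, and 1.21-fold lower at day 13. At day 1 the ovary was called higher (1.03 ± 0.41, adjusted p 0.0473), a call that held in only 3 of 21 alternatives. Without ovary day 1 replicate 2 the value was 0.39 (adjusted p 0.403), without fat body day 1 replicate 1 0.46 (adjusted p 0.377), and under median-of-ratios scaling 0.29 (adjusted p 0.553).

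Other models carry the name E74EF. Isoform B (BDOR_000219) went from 1.96 ± 0.0520 FPKM at day 1 to 0.106 ± 0.0497 FPKM at day 13 in the ovary (-1.42 ± 0.13, adjusted p 5.36e-06) and from 1.80 ± 0.137 to 0.271 ± 0.128 FPKM in the fat body (-1.14 ± 0.13, adjusted p 9.04e-05). Isoform A-like (MSTRG.699) went from 4.24 ± 3.82 to 0.130 ± 0.0341 FPKM in the ovary (-1.99 ± 0.41, adjusted p 0.00183), and its fat body libraries held at most 0.160 FPKM. Its ovary libraries of day 1, at 1.54 and 6.93 FPKM, overlapped those of day 5, at 3.37 and 1.87 FPKM, and that step did not pass (-0.34 ± 0.41, adjusted p 0.601). Only the earlier, higher ages of isoforms B and A-like reached the level filter. Their falls were thus partly set by the filter and are given as a description. As a description, given the level filter, the ovary against fat body difference of isoform A-like over the 4 ages was 1.08 ± 0.20. Over the same ages isoform B was lower in the ovary (-0.21 ± 0.06, adjusted p 0.00998). The gene ontology terms of isoform A-like name axon guidance, not transcription. Isoform B and MSTRG.5256 have different KEGG orthology entries. A further E74EF-like model (BDOR_002015) had at most 0.118 FPKM.

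**Figure D2:**
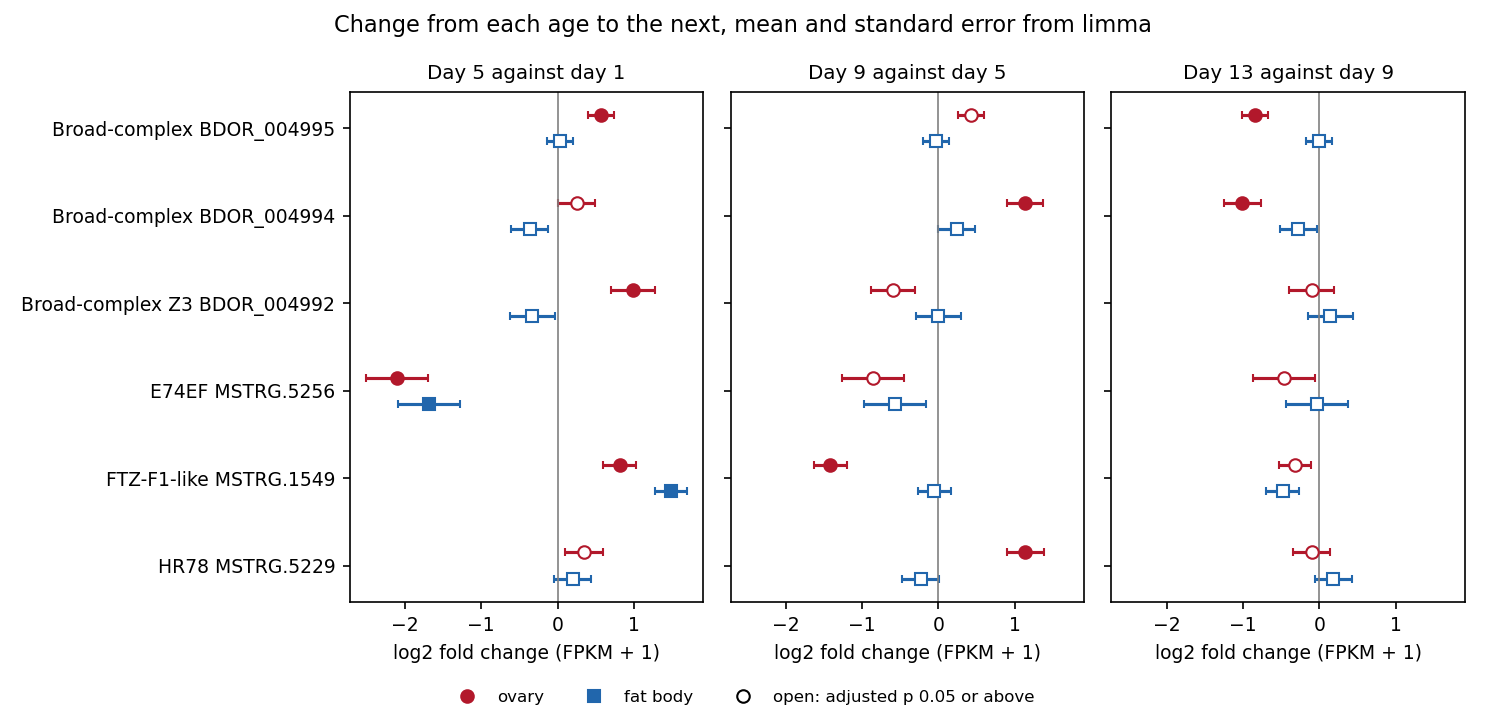
Log2 fold change of FPKM plus 1 (horizontal axis) for each of the 6 genes from one age to the next, in ovary (red circles) and fat body (blue squares), with bars for the standard error from limma and open symbols for an adjusted p of 0.05 or above. E74EF falls in both tissues in the first step, while from day 5 to day 9 the ovary changes of HR78 (1.14) and the FTZ-F1-like product (-1.41) are opposite in sign and the fat body changes lie near 0.

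HR78 (MSTRG.5229), an orphan nuclear receptor, was higher in the ovary than in the fat body at every age. Its ovary libraries held 14.3 and 9.83 FPKM at day 1, 14.1 and 16.7 FPKM at day 5, 35.3 and 34.8 FPKM at day 9, and 35.0 and 30.5 FPKM at day 13. The fat body libraries held 2.47 and 5.11 FPKM at day 1, 4.51 and 4.06 FPKM at day 5, 3.34 and 3.66 FPKM at day 9, and 4.22 and 4.01 FPKM at day 13. The lowest ovary library lay above the highest fat body library. Within the ovary, days 9 and 13 overlapped with each other, as did days 5 and 1, and the later pair of ages lay above the earlier pair.

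HR78 rose in the ovary from day 5 to day 9 (1.14 ± 0.24, adjusted p 0.004), 2.28-fold in mean FPKM, and was higher at day 13 than at day 1 (1.39 ± 0.24, adjusted p 0.00067). Both calls held in all 21 alternatives. No fat body step passed, with values from -0.23 to 0.20 (adjusted p from 0.656 to 0.787). The rise to day 9 differed between the tissues by 1.37 ± 0.34 (adjusted p 0.0147). That difference was 1.26 (adjusted p 0.0552) without ovary day 5 replicate 1 and 1.31 (adjusted p 0.0504) without fat body day 5 replicate 1. Over the same ovary step the summed muscle markers went from 5228 and 5651 FPKM to 573.6 and 999.4 FPKM, and the summed hemocyte markers from 187.7 and 177.6 FPKM to 62.2 and 57.2 FPKM. The log2 level of HR78 and that of the muscle markers had a Pearson r of -0.80 over the 8 ovary libraries and 0.09 over the 8 fat body libraries, and the part of these markers in the rise was not tested.

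Between the tissues HR78 was higher in the ovary by 1.48 ± 0.24 at day 1 (adjusted p 0.00035), 1.63 ± 0.24 at day 5 (adjusted p 0.000175), 3.0 ± 0.24 at day 9 (adjusted p 1.29e-06) and 2.72 ± 0.24 at day 13 (adjusted p 2.35e-06). In mean FPKM the ovary was 3.18-fold higher at day 1 and 7.96-fold higher at day 13. Each call held in all 21 alternatives. Germline markers in the ovary summed to 515.0 and 617.0 FPKM at day 1, 765.5 and 818.7 FPKM at day 5, 956.1 and 974.7 FPKM at day 9 and 1099 and 1106 FPKM at day 13, and their part in the HR78 levels was not tested.

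**Figure D3:**
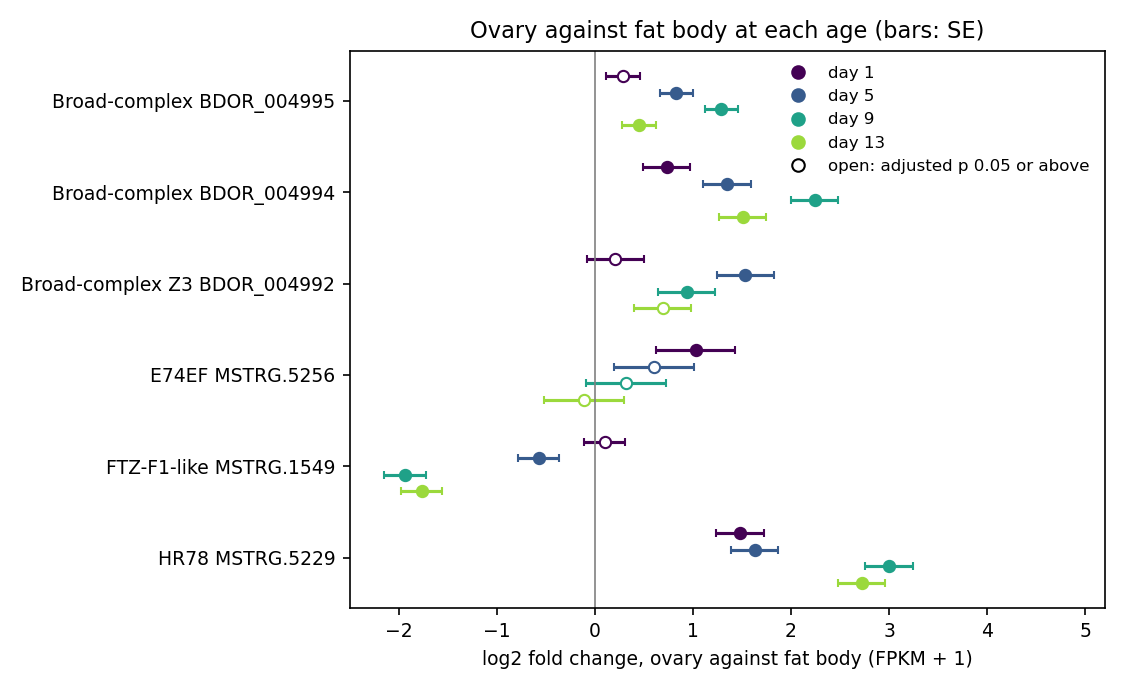
Log2 fold change of FPKM plus 1, ovary against fat body (horizontal axis), for each of the 6 genes at days 1, 5, 9 and 13 (colours), with bars for the standard error from limma and open symbols for an adjusted p of 0.05 or above. HR78 goes from 1.48 at day 1 to 3.0 at day 9, and the FTZ-F1-like product goes from 0.10 at day 1 to -1.94 at day 9.

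The FTZ-F1-like product (MSTRG.1549) was the one of the 6 that was higher in the fat body. Its fat body libraries held 1.29 and 1.82 FPKM at day 1, 6.09 and 6.13 FPKM at day 5, 7.30 and 4.66 FPKM at day 9, and 4.77 and 3.18 FPKM at day 13. Its ovary libraries held 1.80 and 1.64 FPKM at day 1, 3.85 and 3.70 FPKM at day 5, 0.816 and 0.768 FPKM at day 9, and 0.452 and 0.428 FPKM at day 13. No 2 ages overlapped in the ovary, where day 5 was highest, and in the fat body day 9 overlapped both day 5 and day 13, and all 3 of these ages lay above day 1.

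From day 1 to day 5 it rose in the fat body (1.48 ± 0.21, adjusted p 0.00163), 3.93-fold in mean FPKM, and in the ovary (0.81 ± 0.21, adjusted p 0.0212). The ovary call ended without any 1 of the 4 libraries compared, at an adjusted p from 0.0539 to 0.0839. From day 5 to day 9 it fell in the ovary (-1.41 ± 0.21, adjusted p 0.000453), 4.77-fold, and had a value of -0.05 ± 0.21 in the fat body (adjusted p 0.944). That step differed between the tissues by -1.36 ± 0.30 (adjusted p 0.00783), which was -0.69 (adjusted p 0.101) under quantile normalization.

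At day 1 the tissues were not told apart (0.10 ± 0.21, adjusted p 0.713), a value that quantile normalization turned to -0.47 and median-of-ratios scaling to -0.37. The ovary was lower by a log2 value of -1.94 ± 0.21 at day 9 (adjusted p 1.29e-05) and -1.77 ± 0.21 at day 13 (adjusted p 2.37e-05), 7.55-fold and 9.03-fold in mean FPKM. Both calls held in all 21 alternatives. From day 1 to day 13 it fell in the ovary (-0.92 ± 0.21, adjusted p 0.00381), with 0.12 (adjusted p 0.664) under quantile normalization, and rose in the fat body (0.95 ± 0.21, adjusted p 0.00676), with an adjusted p of 0.0604 without fat body day 13 replicate 1.

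Muscle markers moved with this gene. Their summed level in the ovary was 2047 and 3241 FPKM at day 1, 5228 and 5651 FPKM at day 5, 573.6 and 999.4 FPKM at day 9, and 355.2 and 400.6 FPKM at day 13. For the fat body it was 4390 and 4419 FPKM at day 1, 15670 and 16300 FPKM at day 5, 11060 and 13020 FPKM at day 9, and 4521 and 5280 FPKM at day 13. A mean of 1 FPKM was reached by 15 of the 17 muscle markers in the ovary and by 16 in the fat body, and none was at 0 in all libraries of a tissue. Their part in the levels of MSTRG.1549 was not tested.

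As a description over libraries that share tissue and age, the log2 level of MSTRG.1549 and that of the summed muscle markers had a Pearson r of 0.97 over the 8 ovary libraries and 0.83 over the 8 fat body libraries. For FTZ-F1 isoform X2 (MSTRG.4468) the same values were -0.43 and -0.10. As a description, given the level filter, the ovary against fat body difference of MSTRG.4468 over the 4 ages was 1.00 ± 0.23. For MSTRG.1549 it was -1.04 ± 0.11 (adjusted p 3.74e-06). MSTRG.4468 held between 0.529 and 3.29 FPKM in ovary libraries and between 0.0790 and 0.823 FPKM in fat body libraries.

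**Figure D4:**
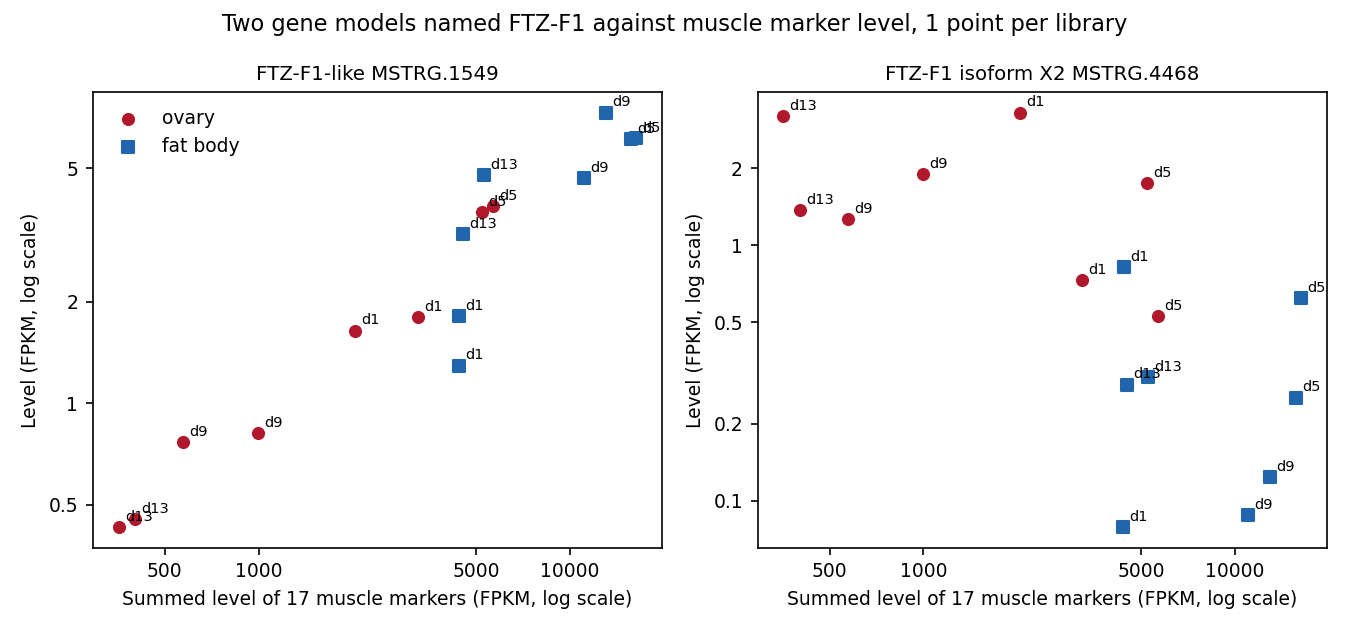
Level in FPKM (vertical axis, log scale) of the FTZ-F1-like product MSTRG.1549 (left) and of FTZ-F1 isoform X2 MSTRG.4468 (right) against the summed FPKM of 17 muscle markers (horizontal axis, log scale), with 1 point per library marked by its day (d1 to d13), in ovary (red circles) and fat body (blue squares). MSTRG.1549 lies along the muscle markers (r of 0.97 in ovary and 0.83 in fat body on the log2 scale), and MSTRG.4468 does not.

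Counted over the 6 genes, 3 rose and 1 fell in the ovary from day 1 to day 5, where 7.42% of all tested genes rose and 16.3% fell. The next ovary step had 2 that rose and 1 that fell, against 13.9% and 24.1% of all genes. Over the last ovary step 0 rose and 2 fell, against 1.63% and 2.59%. These counts hold the day 5 rise of BDOR_004992 and the day 13 fall of BDOR_004995, both partly set by the level filter. Fat body changes were fewer, with 1 that rose and 1 that fell from day 1 to day 5, against 3.80% and 10.7%. For the later fat body steps limma called 0 of the 6, against 5.53% of all genes higher and 5.60% lower at day 9 and 1.73% higher and 5.42% lower at day 13. Of those 12 values 1 had an unadjusted p under 0.05, that of the FTZ-F1-like product (MSTRG.1549) in the last step (p 0.0463). Over the whole span 1 rose and 2 fell in the ovary, against 20.8% and 35.0%, and 1 rose and 1 fell in the fat body, against 6.35% and 23.4%.

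Between the tissues 4 of the 6 were higher in the ovary and 1 lower over the 4 ages, where 57.4% of all genes were higher and 24.9% lower. At day 1 the counts were 3 and 0, against 47.6% and 15.4%. They were 4 and 1 at day 5, against 48.9% and 16.3%, and 4 and 1 at day 9, against 44.4% and 23.7%. At day 13 they were 3 and 1, against 46.0% and 21.8%. With most genes differing between the tissues, and with 3 of the 4 being broad-complex models that passed the level filter through ovary groups only, these counts are not read as a result about the 6 genes. The change from day 5 to day 9 differed between the tissues in 2 of the 6, 1 in each direction, against 10.0% higher and 16.3% lower among all genes. For the step to day 5 limma called 0 of the 6 different between tissues, against 4.11% higher and 3.85% lower, and 3 of them had an unadjusted p under 0.05. For the step to day 13 it called 0, against 3.76% and 1.74%, and 1 had an unadjusted p under 0.05.

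Scaling moved these directions across the whole table. The median tissue difference of all genes over the 4 ages was 0.58 as deposited, 0.21 after quantile normalization and 0.0 with median-of-ratios scaling, and the median of the 6 genes was 0.78 as deposited. As deposited, 5860 genes were higher and 2542 lower in the ovary, and with median-of-ratios scaling 4025 and 4026, so a direction between tissues is relative to that shift. Among genes that differed at days 1, 5, 9 and 13, the share higher in the ovary was 75.6%, 75.0%, 65.2% and 67.8% as deposited and 50.2%, 48.0%, 49.8% and 49.0% with that scaling.

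Over age, the share of changed ovary genes that rose from day 1 to day 5 was 31.2% as deposited, 42.4% by median-of-ratios and 49.3% by quantile normalization. For the step to day 9 these shares were 36.6%, 52.6% and 49.8%, for the step to day 13 38.5%, 27.8% and 37.9%, and over the whole span 37.3%, 49.5% and 51.0%. Fat body shares were 26.1%, 49.8% and 47.4% for the step to day 5, 24.2%, 39.9% and 44.9% for the step to day 13, and 21.4%, 52.9% and 48.0% over the whole span. For tissue differences in the step to day 9, the share with the higher ovary value was 38.2%, 49.0% and 51.6%, and in the step to day 13 68.3%, 53.2% and 50.7%. The ovary fall of E74EF from day 1 to day 5 and the ovary rise of HR78 from day 5 to day 9 passed under each of these scalings.

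The rest of the ecdysone response was read from a list of 17 other genes matched by product name, of which 12 were tested. From day 5 to day 9 in the ovary 6 rose and 2 fell, against 13.9% and 24.1% of all genes, with a list median of 0.52 against -0.15 for all genes. In the fat body 0 rose and 1 fell, against 5.53% and 5.60%. HR3, FTZ-F1 beta (MSTRG.3763), ecdysone receptor B1 (MSTRG.6056) and E75B (MSTRG.6921) reached a mean of 1 FPKM only in the ovary at day 9 or later. They were among the ovary risers, E74EF isoform A-like was among the ovary fallers and E74EF isoform B was the gene that fell in the fat body. These counts were thus partly set by the level filter and are given as a description. Over the 4 ages 10 were higher and 1 lower in the ovary, with a median of 0.78 against 0.58 for all genes. As 57.4% of all genes were higher there and 24.9% lower, and scaling evens that split, counts between the tissues are not read as a result for this or the lists below. From day 1 to day 5, 0 rose and 2 fell in each tissue, against 7.42% and 16.3% of all genes in the ovary and 3.80% and 10.7% in the fat body. The ovary count holds E74EF isoform B, whose fall was partly set by the level filter.

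The ecdysone receptor (MSTRG.6055), the hormone-binding partner of the receptor pair, held 1.70 and 2.25 FPKM at day 1, 2.75 and 1.79 FPKM at day 5, 9.15 and 7.63 FPKM at day 9, and 2.53 and 8.55 FPKM at day 13 in the ovary. In the fat body it held between 0.283 and 0.890 FPKM. It rose in the ovary from day 5 to day 9 (1.53 ± 0.38, adjusted p 0.00851), with an adjusted p of up to 0.0611 without ovary day 5 replicate 2 or ovary day 9 replicate 1. As a description, given the level filter, its ovary against fat body difference over the 4 ages was 1.66 ± 0.19. For ecdysone receptor B1 (MSTRG.6056) that difference was 0.53 ± 0.13 (adjusted p 0.0736 under median-of-ratios scaling). Its day 9 call (0.73 ± 0.26, adjusted p 0.0458) held in only 4 of 21 alternatives. This model passed the filter through the ovary at days 9 and 13 only. No product named ultraspiracle matched.

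E75 is an early gene whose products are nuclear receptors. One model of it, E75B (MSTRG.6921), went in the ovary from 0.684 ± 0.155 FPKM at day 5 to 6.80 ± 4.72 FPKM at day 9 (2.07 ± 0.38, adjusted p 0.0015). Another tested model, named E75B isoforms C/D-like (MSTRG.6920), ranged from 0.0402 to 60.2 FPKM over the libraries. Its levels by tissue and age are not given here, so the course of MSTRG.6921 is not read as that of E75 as a whole. HR3, a receptor of the next tier, went from 0.0640 ± 0.00846 to 1.04 ± 0.146 FPKM (0.94 ± 0.11, adjusted p 8.51e-05) and then to 0.340 ± 0.0258 FPKM at day 13 (-0.60 ± 0.11, adjusted p 0.0179). The rise to day 9 differed between the tissues for HR3 (0.94 ± 0.15, adjusted p 0.00158) and for MSTRG.6921 (1.94 ± 0.53, adjusted p 0.0218). HR3 passed the level filter through ovary day 9 alone and MSTRG.6921 through ovary days 9 and 13 alone. These values were thus partly set by the filter and are given as a description. The MSTRG.6921 difference did not pass with a pseudocount of 0.1 or without 1 of 4 single libraries, with an adjusted p of up to 0.0749, and the HR3 fall did not pass under quantile normalization or without 1 of 3 ovary libraries, with an adjusted p of up to 0.106.

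**Figure D5:**
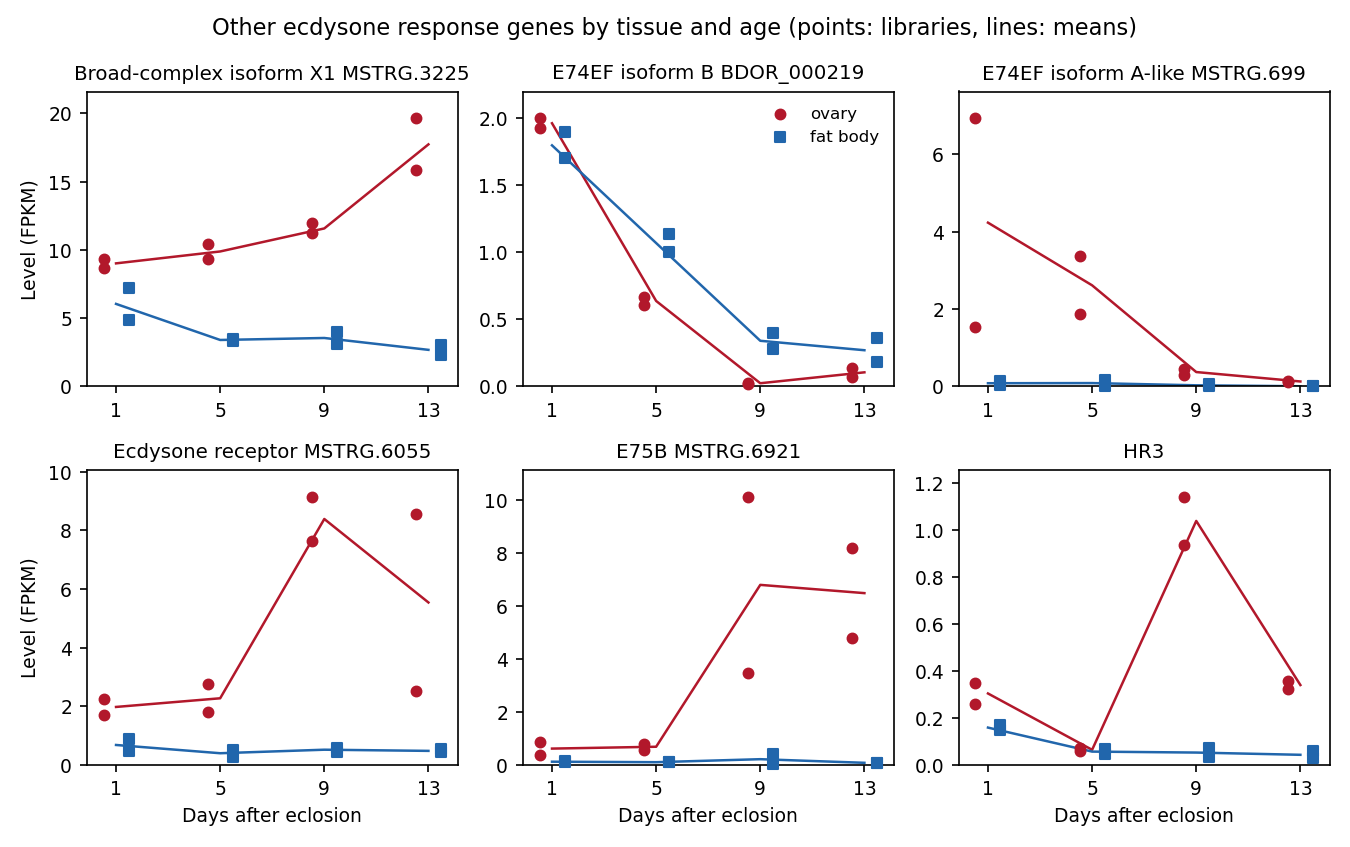
FPKM (vertical axis) of 6 other ecdysone response genes at 1, 5, 9 and 13 days after eclosion (horizontal axis) in ovary (red circles) and fat body (blue squares), with 1 point per library and lines through the means. The ecdysone receptor, E75B model MSTRG.6921 and HR3 are higher at day 9 than at day 5 in the ovary, E74EF isoform B is lower at day 13 than at day 1 in both tissues, and broad-complex isoform X1 is highest in the ovary at day 13.

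The enzymes that make the hormone, a list of 6, had 5 that rose and 0 that fell in the ovary from day 5 to day 9, against 13.9% and 24.1% of all genes, and 4 and 1 from day 1 to day 5, against 7.42% and 16.3%. In the fat body 3 rose and 0 fell from day 5 to day 9, against 5.53% and 5.60%, and 0 rose and 0 fell from day 1 to day 5, against 3.80% and 10.7%. In the ovary CYP315A1 (MSTRG.1266), a mitochondrial P450 of the synthesis pathway, rose by 2.24 ± 0.25 from day 5 to day 9 (adjusted p 6.5e-05). Ecdysone 20-monooxygenase (MSTRG.5747), the last enzyme of the pathway, fell there by 1.90 ± 0.19 from day 1 to day 5 (adjusted p 0.000156). CYP307A1-like (MSTRG.603) rose there by 4.12 ± 0.20 from day 1 to day 5 (adjusted p 3.51e-06). Only the later age reached the filter level, so that value is given as a description. From day 5 to day 9 in the ovary the 6 juvenile hormone genes had 3 that rose and 1 that fell, the 4 tested coregulators of nuclear receptors 0 and 1, and the 8 tested BTB zinc finger relatives of broad-complex 0 and 3. Over the 4 ages the numbers higher and lower in the ovary were 4 and 0 of 6 hormone synthesis genes, 3 and 2 of 6 juvenile hormone genes, 4 and 0 of 4 coregulators, 1 of them a row that protein rigor mortis (MSTRG.8079) shares with another product, and 7 and 1 of 8 BTB relatives. Of all genes 57.4% were higher and 24.9% lower, and these counts are not read as a result.

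The genes whose levels ran most like each of the 6 over the 16 libraries were taken among those with an informative product name. The r values describe libraries that share tissue and age. For HR78 they were myb-like protein I (MSTRG.4221, r 0.990), N-acetylglucosaminyl-phosphatidylinositol de-N-acetylase (MSTRG.7770, r 0.989) and non-lysosomal glucosylceramidase (MSTRG.10905, r 0.987), with r from 0.954 to 0.977 in the ovary alone and from 0.634 to 0.822 in the fat body alone. For E74EF they were myb-like protein Q (MSTRG.11183, r 0.964), a gamma-aminobutyric acid type B receptor subunit (r 0.947) and a major facilitator protein (MSTRG.7278, r 0.944), with r of at least 0.938 in each tissue alone. For the FTZ-F1-like product they were sarcalumenin (MSTRG.6082, r 0.952), the muscle myosin heavy chain (MSTRG.1041, r 0.945) and GH19567 (MSTRG.710, r 0.942), with r of at least 0.912 in each tissue alone. Sarcalumenin is a calcium-binding protein of the sarcoplasmic reticulum of muscle.

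For broad-complex BDOR_004994 they were a WD repeat-containing protein 48 homolog (MSTRG.839, r 0.950), a dnaJ homolog (MSTRG.1609, r 0.950) and an arf-GAP (MSTRG.9779, r 0.947). Cuticle protein 8 (MSTRG.2469, r 0.922) led for BDOR_004995 and breast cancer anti-estrogen resistance protein 3 homolog (MSTRG.5527, r 0.911) for BDOR_004992. In the fat body alone the r of these last 2 was -0.016 and -0.59, where the broad-complex models were mostly listed at 0. Among the 6 genes themselves, r within the ovary was 0.87 between BDOR_004995 and BDOR_004994, 0.20 between BDOR_004994 and BDOR_004992, 0.68 between BDOR_004994 and HR78, and -0.90 between E74EF and HR78.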

How the data were processed

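RNA sequencing of ovary and fat body gave 16 libraries in 8 groups of 2. The authors deposited FPKM per gene for each library, per the file headers. The submitters' processing notes name HISAT2 2.0, StringTie 1.3.0, Bowtie 0.12.2 and the mouse build mm8, without their roles; the fly assembly and annotation are not given in the sources used here. Read counts were not used here, so counting error is unknown. Tests used limma 3.58.1 in R 4.3.3 on log2(FPKM + 1), with trended and robust moderation and 1 coefficient per group, over the 10213 genes whose mean reached 1 FPKM in some group. P-values were adjusted by Benjamini-Hochberg over all of them, in each of 16 comparisons. The script was tested on simulated data. Alternatives were a pseudocount of 0.1, no filter, median-of-ratios scaling, quantile normalization, a replicate block and leaving out each library. The 6 genes and all lists were chosen with earlier results of these data known. All 6 genes are reported. From the lists, some of the called genes with the smallest p-values are named. The receptors and models sharing a member's product name are named too, the latter chosen after their values were seen. Product names and ontology are the authors'.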

Additional observations from a re-analysis of the deposited data

Results flagged for a closer look

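The change from day 5 to day 9 differed between the tissues for HR78 (MSTRG.5229), by a log2 value of 1.37 ± 0.34 (limma, adjusted p 0.0147). It went from 15.4 to 35.0 FPKM in the ovary and from 4.29 to 3.50 FPKM in the fat body. The same difference had the opposite sign for the FTZ-F1-like product (MSTRG.1549), at -1.36 ± 0.30 (limma, adjusted p 0.00783). It went from 3.78 to 0.792 FPKM in the ovary and from 6.11 to 5.98 FPKM in the fat body. Both were picked out because the test of the difference between tissues passed.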

How the results depend on the processing

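Of 96 member comparisons 40 passed the test, 24 of those passed under all 21 alternatives, and 11 that did not pass did so under some alternative. Absolute depth is unknown, so low levels such as those of the broad-complex models carry a counting error that is not given. Where an alternative below changed a value, the cause was not tested.

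With the replicate number as a block, the fall of broad-complex BDOR_004994 from day 9 to day 13 in the ovary had an adjusted p of 0.0623, and the block changed no other call among the 6 genes. Over 28 pairs of groups the correlation of replicate deviations ran from -0.149 to 0.146, and 1 was over 0.1. Between ovary and fat body of the same day it was 0.0834, 0.0156, 0.0513 and 0.0411 at days 1, 5, 9 and 13. Whether same-numbered libraries came from the same females is not given, and these values cannot decide it.

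The number of changed genes was 261 in place of 431 for ovary day 13 against day 9 under quantile normalization, and 291 in place of 813 for the tissue difference in day 5 against day 1 with a pseudocount of 0.1. Leaving out 1 library at a time gave 1189 to 2544 for ovary day 5 against day 1 (2426 with all), 155 to 458 for ovary day 13 against day 9, 612 to 1630 for fat body day 5 against day 1 (1484), 563 to 1257 for fat body day 9 against day 5 (1137), 400 to 816 for fat body day 13 against day 9 (731), 371 to 1059 for the tissue difference in day 5 against day 1 (813) and 240 to 593 for that in day 13 against day 9 (562). The lowest counts came without ovary day 5 replicate 2, ovary day 13 replicate 1, fat body day 5 replicate 2, fat body day 5 replicate 1, fat body day 13 replicate 1, fat body day 5 replicate 1 and ovary day 13 replicate 1, in that order. A group left with 1 library is assumed to vary like the others.

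Log2 values that changed sign had not passed the test, except 1: the FTZ-F1-like product (MSTRG.1549) in ovary day 13 against day 1, 0.116 under quantile normalization. Its other reversals were 0.045 (median-of-ratios) and 0.025 (quantile) for fat body day 9 against day 5, -0.374 and -0.47 for the tissues at day 1, and -0.152 for the tissue difference in day 13 against day 9 with a pseudocount of 0.1. For E74EF (MSTRG.5256) they were 0.038 and 0.218 for fat body day 13 against day 9, -0.084, -0.028 and -0.067 for the tissues over the 4 ages, at day 5 and at day 9 by median-of-ratios, and after quantile normalization 0.022 for the tissues at day 13 and 0.383 for the tissue difference in day 9 against day 5. For BDOR_004992 quantile normalization gave 0.05 for ovary day 9 against day 5 and for its tissue difference, 0.085 for ovary day 13 against day 9 and -0.044 for the tissues at day 1. For BDOR_004994 a pseudocount of 0.1 gave 0.168 for the tissue difference in day 13 against day 9.

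Leaving out 1 library at a time also turned signs among values that had not passed. The ranges were -0.067 to 0.396 for BDOR_004995 in ovary day 13 against day 1 and -0.014 to 0.514 for BDOR_004994 in ovary day 5 against day 1. For BDOR_004992 they were -0.347 to 0.148 in ovary day 13 against day 9, -0.514 to 0.146 in fat body day 13 against day 1, -0.121 to 0.539 between the tissues at day 1 and -0.493 to 0.002 for the tissue difference in day 13 against day 9. For E74EF they were -0.189 to 0.125 in fat body day 13 against day 9 and -1.063 to 0.213 for the tissue difference in day 5 against day 1. For MSTRG.1549 they were -0.33 to 0.224 in fat body day 9 against day 5, -0.049 to 0.247 between the tissues at day 1 and -0.11 to 0.443 for the tissue difference in day 13 against day 9. For HR78 they were -0.21 to 0.605 in fat body day 5 against day 1, -0.257 to 0.559 in fat body day 13 against day 1 and -0.26 to 0.556 for the tissue difference in day 5 against day 1.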
